A study of Vitis vinifera with 6 samples.

Results

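The grapevine array carried 4392 features whose identifier starts with XLOC_, and these loci, which stand beside the reference gene set, are described here. All non-control features with that prefix were taken, with no choice by their values, so that they made up 4392 of 34369 non-control features (12.8%) and are set against the 29798 features that carry a reference gene identifier (VIT_ genes). Each XLOC_ identifier occurred once and had a single spot on each array. RNA came from young Shiraz leaves (grapevine, *Vitis vinifera*) and was hybridized to 6 single-colour arrays. The OXNAC33 group (3 arrays) came from plants stably overexpressing *VviNAC33* under the constitutive 35S promoter, and each array was a different transgenic line with pooled leaves, per the methods of the study. The control group (3 arrays) came from Shiraz plants that the methods describe as transformed with the same kind of vector carrying *eGFP*. Which control plants gave each array was not stated, so that p-values measure only the spread between these samples, which may be technical for the controls. Leaf age was not given beyond the label of young leaves.

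The prefix XLOC_ is one that the Cufflinks suite of programs uses for loci built from RNA-seq reads. Loci of this kind can be protein-coding genes that a gene prediction missed, long noncoding RNAs, transposon-derived transcripts, or stretches of a neighbouring gene such as an unannotated untranslated region. *VviNAC33* encodes a NAC transcription factor, a plant-specific family with members that are known to control leaf senescence. The array files paired the XLOC_ identifiers with no gene name, position or sequence, so that the loci are named by identifier only and their kind is not given.

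The targeted gene was examined first. For *VviNAC33* (VIT_19s0027g00230) the level was -0.54, -3.89 and -0.998 on the arrays labelled OXNAC33 replicates 1, 2 and 3, against -5.22, -4.14 and -4.01 on control replicates 1, 2 and 3. These and all levels below are log2 intensities after the 75th percentile of each array was subtracted. Every OXNAC33 array lay above every control, but the array labelled OXNAC33 replicate 2 exceeded the highest control by a small margin, and limma gave an adjusted p of 0.116 for the difference of 2.65 (SE 0.88), above the threshold of 0.05. As a check of the tissue, 7 of 7 nuclear photosynthesis genes chosen as leaf markers were well above background on all 6 arrays. None of them differed between the groups at an adjusted p under 0.05 (limma). In contrast, 2 flower markers and 1 berry marker were well above background on no array. Of 2 seed markers, an oleosin gene was well above background on all arrays at levels of -2.90 or less, and a globulin gene was well above background on 2 OXNAC33 arrays and 1 control array. Scan times recorded by the scanner divided the arrays into 2 sessions. Session 2 held OXNAC33 replicate 3 with control replicates 2 and 3, and session 1 held OXNAC33 replicates 1 and 2 with control replicate 1.

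Fewer XLOC_ loci than VIT_ genes gave a signal in these leaves. XLOC_ loci well above background numbered 1622, 2042 and 2061 on OXNAC33 replicates 1, 2 and 3 (36.9%, 46.5% and 46.9%), against 1772, 1820 and 1752 on control replicates 1, 2 and 3 (40.3%, 41.4% and 39.9%). VIT_ genes well above background made up 74.4% to 79.3% on OXNAC33 arrays and 76.1% to 77.4% on control arrays, so that the XLOC_ share minus the VIT_ share was -37.5 to -32.3 percentage points over the 6 arrays. Over the arrays, 1300 XLOC_ loci (29.6%) were well above background on all 6, 1875 (42.7%) on none and 1217 (27.7%) on some. The corresponding shares of VIT_ genes were 70.5%, 15.6% and 13.8%.

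The shares were more variable among OXNAC33 arrays than among controls but did not separate the groups. The XLOC_ share averaged 43.5% ± 5.7 in OXNAC33 leaves and 40.6% ± 0.8 in control leaves (SD, n = 3 each), a difference of 2.89 percentage points (exact permutation test over arrays, two-sided, p = 0.4). Set against the VIT_ share of the same array, the gap was -34.2 ± 2.9 percentage points in OXNAC33 leaves and -36.1 ± 0.2 in control leaves (SD, n = 3 each; exact permutation p = 0.4). With 3 arrays against 3 such a test cannot go below 0.1.

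**Figure D1:**
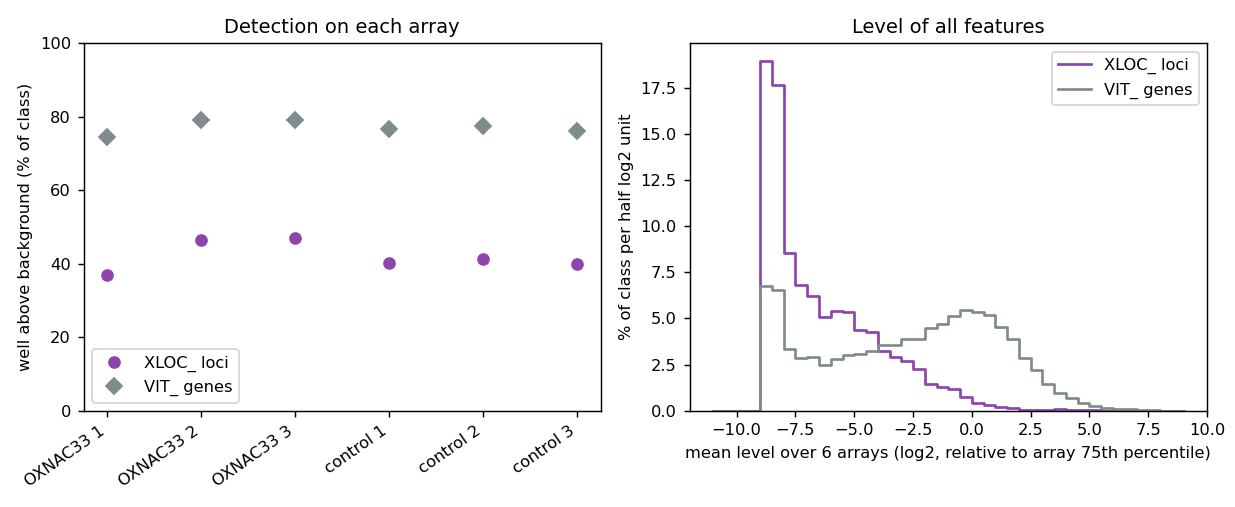
The left panel gives the percentage of XLOC_ loci and of VIT_ genes well above background on each array, and the right panel the share of each class by its mean log2 level over 6 arrays. XLOC_ loci lie between 36.9% and 46.9% on every array, below the VIT_ genes at 74.4% to 79.3%, and pile up at the low end of the level axis.

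The XLOC_ loci were also dim. The median XLOC_ level was -6.82, -6.72 and -7.42 on OXNAC33 replicates 1, 2 and 3, against -6.79, -7.17 and -7.44 on control replicates 1, 2 and 3. The VIT_ medians were -2.35 to -2.19 on OXNAC33 arrays and -2.21 to -2.16 on control arrays. The gap between the class medians was -4.71 ± 0.31 in OXNAC33 leaves and -4.95 ± 0.30 in control leaves (SD, n = 3 each; exact permutation p = 0.3). Among features well above background alone the XLOC_ median minus the VIT_ median was still -3.89 to -3.05 log2 units on the OXNAC33 arrays and -3.41 to -3.15 on the control arrays. Averaged over the arrays, 68 XLOC_ loci (1.55%) exceeded the 75th percentile, compared with 8429 VIT_ genes (28.3%). Intensity also depends on the sequence of each probe, so that these are differences in brightness between classes of probes and not in transcript number.

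A few XLOC_ loci were among the brighter features of the array. XLOC_020970 read 7.58, 6.89 and 6.45 in OXNAC33 leaves, against 7.15, 7.09 and 6.57 in control leaves. XLOC_002685 read 5.64, 5.33 and 5.35 in OXNAC33 leaves, against 4.94, 5.02 and 4.04 in control leaves. XLOC_006267 read 5.07, 5.06 and 4.44 in OXNAC33 leaves, against 5.19, 4.85 and 4.70 in control leaves. None of these 3 passed the test between the groups (limma, adjusted p = 0.954, 0.167 and 0.911), and XLOC_002685 was the only one of them whose groups did not overlap. XLOC_020784, the second brightest, had a spread that followed the scan sessions and is described with them.

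To compare OXNAC33 and control leaves, a locus entered the test if 1 of the groups or both had it well above background on all 3 arrays and if at least 2 values per group remained once outlier spots were dropped. Of the 4392 XLOC_ loci, 1639 were tested, 1875 were never well above background, and 878 were above it on some arrays without being tested. Of the tested loci, 1299 were well above background on all arrays, 161 passed the filter only through OXNAC33 leaves and 179 only through control leaves. Loci of the last 2 kinds were selected for being high in 1 group, so that counts are also given over the 1299.

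Of the 1639 XLOC_ loci tested, 49 (2.99%) differed between OXNAC33 and control leaves at an adjusted p under 0.05 (limma, Benjamini-Hochberg over all 23907 features tested), which is below the 5.02% called among all features tested. In OXNAC33 leaves 9 loci were higher (0.549%, against 1.69% of all features) and 40 were lower (2.44%, against 3.33%). All 49 differed by more than the 1.5-fold of the study's methods, with log2 changes of 1.12 to 2.79 for those higher and -4.52 to -1.01 for those lower. Among the 1299 XLOC_ loci well above background on all arrays, 28 (2.16%) were called, 3 higher and 25 lower, compared with 978 of 20818 VIT_ genes (4.70%). The groups did not overlap for 391 XLOC_ loci tested (23.9%), against 35.5% of all features tested. Of the 391, 304 (77.7%) were lower in OXNAC33 leaves, compared with 4875 of 8484 (57.5%) over all features tested. These features are not matched for brightness, and the direction without overlap was not set against VIT_ genes of the same brightness.

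The calls lay just inside the threshold and depended on single arrays and on the model. The adjusted p of the 49 loci ranged from 0.0361 to 0.0498. Adding the scan session as a block left 0 of all features tested called by limma, and so 0 XLOC_ loci. The unadjusted p was under 0.05 for 340 XLOC_ loci with the block. Without it the count was 316 (19.3%), against 27.3% of all features tested, and with it the share over all features was not counted. The adjusted p of the 49 became 0.0546 to 0.0732. The groups did not overlap for any of the 49, which fixes the same direction inside both sessions, so that this direction is no further check. The count of XLOC_ loci called was 0 without OXNAC33 replicate 1, without OXNAC33 replicate 3 and without control replicate 1, 2 or 3. Over all features tested, these fits called 9, 1, 0, 0 and 0, so that the loss was not particular to XLOC_ loci. Without the array labelled OXNAC33 replicate 2, 77 of 1661 XLOC_ loci were called, against 2554 of 23814 features of all classes. Of the 77, 39 were among the 49. The unadjusted p was under 0.05 for 206 to 375 XLOC_ loci in these 6 fits, for which the share over all features was not counted. The split by direction depended on the scaling of the arrays, with 14 higher and 31 lower under scaling by the array median and 16 higher and 18 lower under scaling by spike-in probes. These scalings moved the median change of all features tested by 0.12 and 0.20.

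Among the loci well above background on all arrays, XLOC_009162 had the strongest fall. It read -2.88, -2.11 and -3.75 in OXNAC33 leaves, against 0.08, -0.48 and 0.54 in control leaves, so that every control array stood near the 75th percentile and every OXNAC33 array well below it. The change was -2.96 (SE 0.47, limma, adjusted p = 0.0361), with -3.78 inside session 2 and -2.58 inside session 1. XLOC_019261 read -2.76, -1.74 and -2.50 in OXNAC33 leaves, against -0.47, -0.21 and -0.16 in control leaves. Its change was -2.05 (SE 0.30, adjusted p = 0.0361) and its controls were close together, with an SD of 0.16 (n = 3). XLOC_010035 read -3.09, -3.84 and -3.91 in OXNAC33 leaves, against -1.72, -1.88 and -1.13 in control leaves, a change of -2.04 (SE 0.32). The brightest of the 49, singled out after its values were seen, was XLOC_000573, with 3.26 and 2.82 on OXNAC33 replicates 2 and 3, against 4.22, 4.33 and 4.53 in control leaves, a change of -1.32 (SE 0.25, adjusted p = 0.0487). Its spot on OXNAC33 replicate 1 had an outlier flag and was left out of the fit.

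XLOC_012094 read -3.10, -3.55 and -4.34 in OXNAC33 leaves, against -2.07, -1.34 and -0.82 in control leaves. Its fall of 2.25 on the log2 scale was uneven between the sessions, being -3.26 in session 2 and -1.25 in session 1. XLOC_009499 read -3.26, -2.74 and -4.16 in OXNAC33 leaves, against -1.40, -1.85 and -1.11 in control leaves. XLOC_020753 read -2.32, -2.39 and -3.22 in OXNAC33 leaves, against -0.63, -1.43 and -0.18 in control leaves. For both, OXNAC33 replicate 3 was the lowest array of all, and their adjusted p values of 0.048 and 0.0492 were near the threshold. The changes were -1.94 (SE 0.40) for XLOC_009499 and -1.90 (SE 0.40) for XLOC_020753.

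Loci that rose in OXNAC33 leaves were fewer. Only 3 of the 9 were well above background on all arrays. XLOC_021691 read -0.73, -0.76 and -0.59 in OXNAC33 leaves, against -2.60, -2.12 and -2.49 in control leaves. The lines differed by an SD of 0.09 (n = 3) and the change was 1.71 (SE 0.21, limma, adjusted p = 0.0361), with 1.71 inside session 2 and 1.86 inside session 1. XLOC_010199 read -2.54, -2.50 and -2.66 in OXNAC33 leaves, against -3.62, -3.44 and -3.99 in control leaves, a change of 1.12 (SE 0.21, adjusted p = 0.0445). XLOC_000818 read -3.81, -2.98 and -3.58 in OXNAC33 leaves, against -4.58, -5.16 and -4.73 in control leaves, a change of 1.36 (SE 0.29, adjusted p = 0.0498). Of these, XLOC_021691 and XLOC_010199 had the lines of the OXNAC33 group closer together than the control arrays, and XLOC_000818 did not. Under normexp, another background correction that was run on the median signals, the change was 1.18 for XLOC_021691, 0.17 for XLOC_010199 and 0.10 for XLOC_000818, and none was called.

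Some loci were well above background in only 1 of the groups. Of all XLOC_ loci, 26 (0.592%) were well above background on all OXNAC33 and no control array, against 0.323% of all non-control features. On all control and no OXNAC33 array there were 11 (0.25%), against 0.209%. The split by scan session gave more: 32 (0.729%, against 0.335%) on all session 2 and no session 1 array, and 31 (0.706%, against 0.358%) the reverse. An excess over all features was thus not particular to the split by group. Features seen in only OXNAC33 or only control leaves passed the filter through the group where they are high. Their calls and adjusted p values are therefore no independent support of a difference. Of the 26, 4 were called, against 33 of 111 such features of all classes, and of the 11, 8 were called, against 41 of 72. For such loci a lower bound of the fold was set by the dimmest signal that counted as well above background on each array, or by the signal of the locus where that was higher. The bounds of the 4 loci ran from 1.57 to 3.17 and those of the 8 from 1.89 to 5.16.

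XLOC_017027 read -4.04, -5.53 and -4.81 in OXNAC33 leaves and was at least 3.17-fold higher there, with no control array well above background. XLOC_010722 read -4.85, -5.27 and -4.58 in OXNAC33 leaves and was at least 2.93-fold higher. XLOC_000856 read -5.57, -4.93 and -4.69 and was at least 2.63-fold higher. Under normexp the fitted changes of these 3 loci turned to -0.27, -0.29 and -0.26, with limma adjusted p values of 0.745, 0.72 and 0.756. In the other direction, no OXNAC33 array was well above background for XLOC_006285. It read -4.26, -5.04 and -3.25 in control leaves and was at least 5.16-fold lower in OXNAC33 leaves. XLOC_011894 read -4.99, -5.17 and -4.25 in control leaves and was at least 3.52-fold lower in OXNAC33 leaves. XLOC_009936 read -4.64, -6.01 and -4.67 in control leaves and was at least 2.85-fold lower in OXNAC33 leaves. Under normexp the fitted changes of these last 3 loci were -1.25, -1.09 and -1.09, with adjusted p values of 0.142, 0.17 and 0.21, so that none was called and the changes were smaller than the bounds, which are those of the deposited processed signals.

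**Figure D2:**
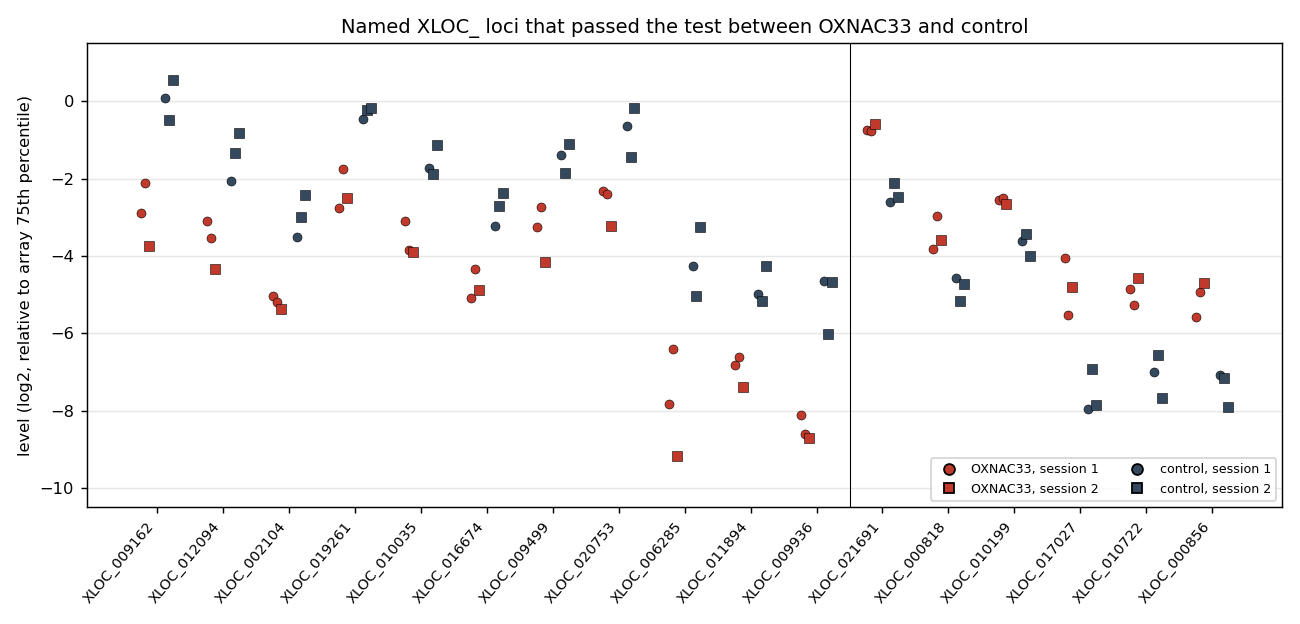
Each point is the log2 level of a named XLOC_ locus on 1 array, with the array's 75th percentile at 0, with OXNAC33 arrays (red) left of control arrays (dark) and scan sessions shown by shape. Loci left of the vertical line were lower in OXNAC33 leaves, such as XLOC_009162 with a change of -2.96, loci right of it were higher, such as XLOC_021691 with 1.71, and the groups overlap for none of them.

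Loci with neighbouring numbers sometimes moved together. The probes of the XLOC_ loci follow the order of the locus numbers, and 1580 loci had the next number also on the array, but the files give no positions and whether neighbours by number lie side by side in the genome, or share sequence, was not tested. Both loci of 293 pairs with consecutive numbers were tested, and across them Pearson's r between the changes was 0.34 (Spearman's rho 0.20). For numbers 2 apart (181 pairs) r was 0.17, for 3 apart (168 pairs) it was -0.05, and for 10 apart (147 pairs) -0.20. Brightness was also correlated between consecutive numbers (r = 0.26), with -0.09, -0.05 and -0.01 for 2, 3 and 10 apart. The pairs include loci that passed the filter through 1 group only, and the correlation was not repeated without them. These are correlations across loci, which share the 6 arrays and are not independent replicates.

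In 2 of the 293 pairs both loci were called, each time lower in OXNAC33 leaves, and these pairs were picked out after their values were seen. In each pair 1 locus entered the test only through the control arrays, where it was high, so that the filter favoured its fall. The shared direction is therefore no support for a link, and no such count was made for other features. XLOC_002103 read -8.17, -6.53 and -8.21 in OXNAC33 leaves, where 1 array was well above background, against -4.02, -3.53 and -1.79 in control leaves. It passed the filter through the control arrays alone. Its fitted change was -4.52 (SE 0.70), and other settings fitted to all 6 arrays gave -4.64 to -1.99. XLOC_002104 read -5.03, -5.18 and -5.37 in OXNAC33 leaves, against -3.51, -2.99 and -2.42 in control leaves. Its change was -2.22 (SE 0.31, limma, adjusted p = 0.0361). Control replicate 3 was the highest array for both. XLOC_002109, 5 numbers further on and also picked after its values were seen, went the other way. It read -2.48, -4.05 and -3.86 in OXNAC33 leaves, against -5.54, -5.37 and -6.40 in control leaves, of which 2 of 3 were well above background. This locus passed the filter through the OXNAC33 arrays alone, where it was high. Its change was 2.31 (SE 0.49, limma, adjusted p = 0.0498), and other settings fitted to all 6 arrays gave 0.20 to 2.50.

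The other pair was XLOC_016674 and XLOC_016675. XLOC_016674 read -5.09, -4.34 and -4.88 in OXNAC33 leaves, against -3.24, -2.71 and -2.38 in control leaves, a change of -1.99 (SE 0.31, adjusted p = 0.0361). XLOC_016675 read -5.47, -5.45 and -5.24 in control leaves and was well above background on no OXNAC33 array, so that it passed the filter through the control arrays alone. By the deposited processed signals it was at least 2.35-fold lower in OXNAC33 leaves. Other settings fitted to all 6 arrays gave log2 changes of -2.15 to -0.99. At a distance of 2 numbers, XLOC_011784 and XLOC_011786 were both called, with changes of -1.23 (SE 0.23) and -1.01 (SE 0.18).

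Because XLOC_ loci were dim, their changes were also set against VIT_ genes of the same brightness. The tested XLOC_ loci were cut into 10 bins of equal number by mean level, and the values of the VIT_ genes in those bins were averaged with equal weight per XLOC_ locus. The share called was 2.99% among XLOC_ loci and 6.17% among VIT_ genes of the same brightness, and it was lower among XLOC_ loci in 10 of 10 bins. Over the features well above background on all arrays, with bins cut anew, it was 2.16% against 4.46%, again lower in 10 of 10 bins. By direction, in the bins of all tested loci, 2.44% of XLOC_ loci were called lower in OXNAC33 leaves and 0.549% higher. Among VIT_ genes of the same brightness, 4.50% were called lower and 1.68% higher, so that calls in both classes were mostly falls. The brightest bin has no upper limit and its VIT_ genes reach higher levels (8.06, against 6.95 for XLOC_ loci). Features of a class are not independent replicates, so that these shares are descriptions without a test.

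The changes of XLOC_ loci were also smaller than those of VIT_ genes of the same brightness. The median size of the change was 0.42 for XLOC_ loci and 0.51 for VIT_ genes of the same brightness, and it was smaller among XLOC_ loci in 10 of 10 bins. Over features well above background on all arrays it was 0.37 against 0.42, smaller in 8 of 10 bins. The median SD over OXNAC33 arrays was 0.50 for XLOC_ loci and 0.49 for VIT_ genes of the same brightness. The median SD over control arrays was 0.32 for XLOC_ loci and 0.37 for the VIT_ genes.

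The change also repeated less well between the scan sessions, which share no array. Over 1638 XLOC_ loci the change inside session 2 and that inside session 1 had a Pearson's r of 0.53 and the same sign for 68.4%. For VIT_ genes of the same brightness the mean r over the bins was 0.72, with the same sign for 72.7%, and r was lower among XLOC_ loci in 10 of 10 bins. Over features well above background on all arrays, r was 0.53 for XLOC_ loci and 0.66 for VIT_ genes of the same brightness. All are correlations across features of the same 6 arrays and are given as descriptions.

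**Figure D3:**
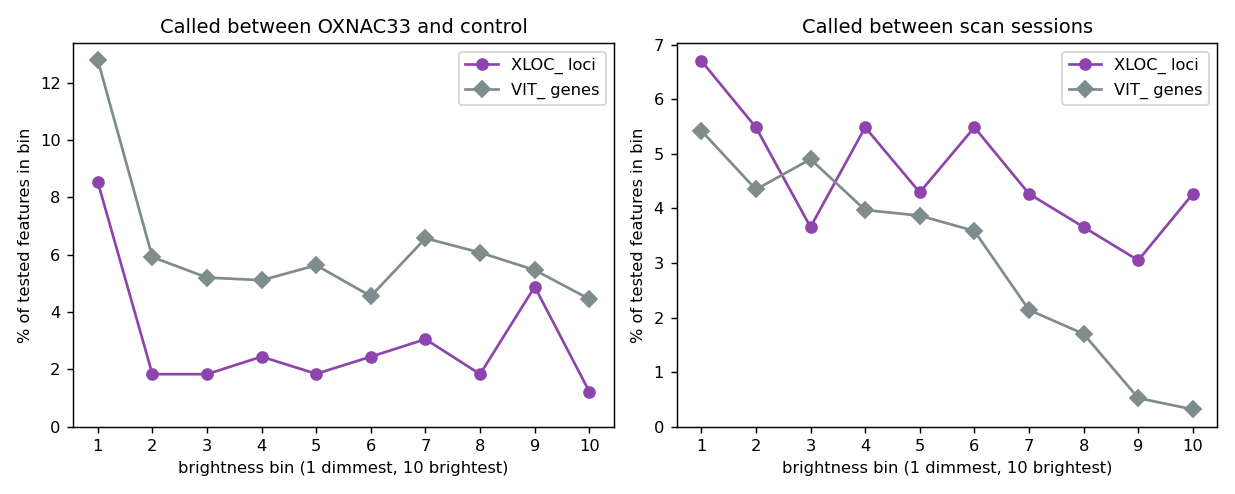
The share of tested features called at an adjusted p under 0.05 is plotted for XLOC_ loci and VIT_ genes in 10 brightness bins, for OXNAC33 against control (left) and for scan session 2 against session 1 (right). XLOC_ loci lie below VIT_ genes in all 10 bins on the left and above them in 9 of 10 bins on the right, where the brightest bin holds 4.27% of XLOC_ loci and 0.315% of VIT_ genes.

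The median change of the tested XLOC_ loci was -0.14, compared with -0.01 over all features tested and -0.03 for VIT_ genes of the same brightness, and 969 of 1639 changes (59.1%) were below 0. The shift differed between arrays. Relative to the mean of the control arrays, the median XLOC_ level was -0.01, -0.01 and -0.36 on OXNAC33 replicates 1, 2 and 3, against 0.02, 0.01 and -0.09 on control replicates 1, 2 and 3. The median change was -0.00118 without OXNAC33 replicate 3, compared with -0.20 to -0.13 without any other single array. Inside the sessions it was -0.32 in session 2, which holds that array, and -0.13 in session 1, which does not, and with the session block it was -0.23. It also changed sign with scaling by spike-in probes (0.053), where the median of all features tested moved to 0.19.

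**Figure D4:**
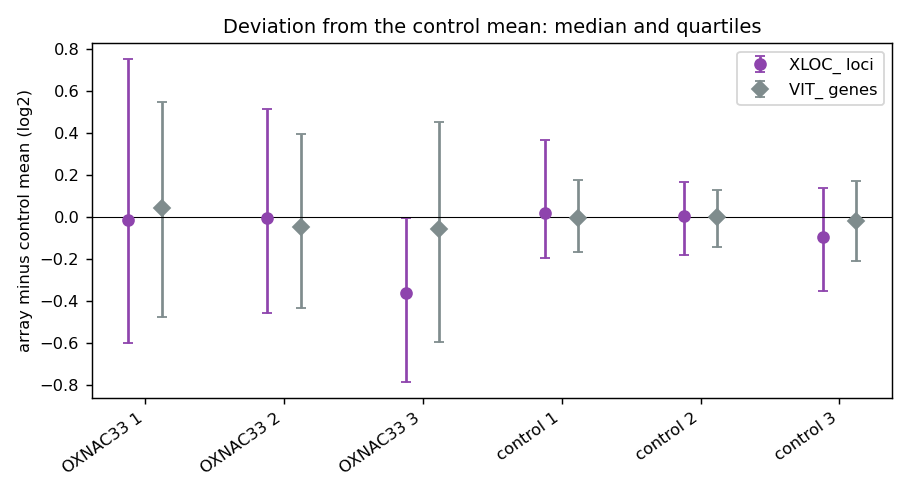
For each array the point gives the median, and the bar the quartiles, of the log2 level minus the mean of the control arrays, over tested XLOC_ loci and tested VIT_ genes. The XLOC_ median is -0.36 on OXNAC33 replicate 3 and lies between -0.09 and 0.02 on the other 5 arrays.

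The XLOC_ loci were also compared between the scan sessions. When session was fitted as a term beside group, limma called 76 of the 1639 XLOC_ loci (4.64%), compared with 1.59% of all features tested. Of the 76, 75 were lower in session 2, a direction called for 1.58% of all features tested. They had log2 changes of -3.13 to -1.30, and the remaining locus was higher by 1.43. The sessions did not overlap, with session 2 lower, for 373 XLOC_ loci (22.8%), against 10.7% of all features tested. An unadjusted p under 0.05 for session was found for 25.1% of XLOC_ loci and 19.6% of VIT_ genes of the same brightness, and it was higher among XLOC_ loci in 10 of 10 bins. The share called was 4.64% for XLOC_ loci and 3.08% for VIT_ genes of the same brightness. Over features well above background on all arrays it was 4.23% against 2.69%, higher among XLOC_ loci in 8 of 10 bins. With equal weight per bin, the share in the 5 dimmest bins was 5.13% for XLOC_ loci and 4.50% for VIT_ genes, and in the 5 brightest bins 4.15% for XLOC_ loci and 1.65% for VIT_ genes. None of the 76 loci was among the 49 called between OXNAC33 and control leaves, and 0 of all features tested were called for both. The groups did not overlap for the 49, nor the sessions for the 75 that were lower in session 2. With these arrays a feature cannot have both properties, so that the lack of shared loci is no separate result.

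The session calls depended on every array. In fits that left out any 1 of the 6 arrays, limma called 0 features of any class for session, while 273 to 449 XLOC_ loci had an unadjusted p under 0.05, the lowest of these being without OXNAC33 replicate 3. The share with an unadjusted p under 0.05 was 16.0% to 27.0% for XLOC_ loci and 5.52% to 11.9% for all tested VIT_ genes. It was higher for XLOC_ loci in each of the 6 fits, but these VIT_ genes were not matched for brightness. Matching was done only in the fit to all 6 arrays, where it raised the VIT_ share to 19.6%, against 25.1% for XLOC_ loci. Whether the excess over VIT_ genes of the same brightness remained without single arrays was not tested. With quantile scaling 27 XLOC_ loci were called for session, all of which were among the 76. What the sessions stand for beyond scan time (slide, hybridization, extraction, labelling or plant material) was not stated.

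The loci that differed between the sessions included bright ones, and those named here, apart from XLOC_020784 and XLOC_006763, were picked after their values were seen as the brightest or most changed of those well above background on all arrays. XLOC_020784 read 5.04, 5.37 and 4.79 in session 2 (OXNAC33 replicate 3, control replicates 2 and 3), against 7.33, 6.93 and 6.84 in session 1 (OXNAC33 replicates 1 and 2, control replicate 1). The session term was -1.92 (SE 0.26, limma, adjusted p = 0.0402), while the group difference had an adjusted p of 0.551. XLOC_006763, which had the largest SD over OXNAC33 arrays (1.88, n = 3), read -4.49, -3.93 and -3.91 in session 2, against -1.17, -1.29 and -0.91 in session 1. Its session term of -3.13 (SE 0.19, adjusted p = 0.0252) was the strongest of the 76.

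XLOC_012893 showed the same split, with -3.73, -3.09 and -3.79 in session 2, against -0.47, -0.94 and -0.37 in session 1. XLOC_009493 read -4.88, -4.18 and -4.84 in session 2, against -1.51, -2.10 and -1.67 in session 1. XLOC_017472 read -5.90, -5.34 and -5.16 in session 2, against -2.83, -2.94 and -2.95 in session 1. In all of these, the OXNAC33 and control arrays of a session lay close together and far from the other session. XLOC_004361 and XLOC_004364, 3 numbers apart, had session terms of -1.93 (SE 0.24) and -2.50 (SE 0.20). XLOC_021893 had a session term of -1.80 (SE 0.25) together with a group change of 1.91 (SE 0.70, adjusted p = 0.14), which was 1.22 inside session 2 and 1.41 inside session 1.

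**Figure D5:**
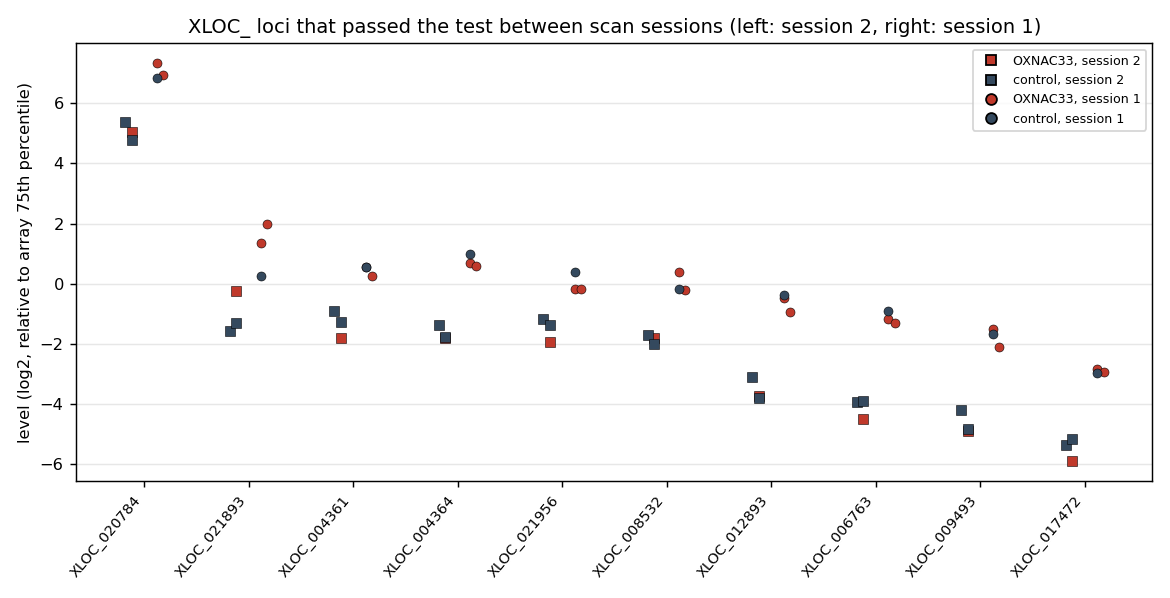
Log2 levels, with the array's 75th percentile at 0, are shown for XLOC_ loci that differed between scan sessions, with session 2 (squares) left of session 1 (circles) and OXNAC33 arrays in red. In every locus shown all 3 arrays of session 2 lie below all 3 of session 1, as for XLOC_020784 at 4.79 to 5.37 against 6.84 to 7.33.

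A wide spread between the OXNAC33 lines was also found at loci that were not called for session. XLOC_003070 read -5.10, -1.58 and -2.40 in OXNAC33 leaves, against -5.17, -3.39 and -4.29 in control leaves. XLOC_015289 read -3.30, -2.53 and -6.01 in OXNAC33 leaves, against -3.83, -5.10 and -3.84 in control leaves. After XLOC_006763, these had the largest SDs over OXNAC33 arrays among XLOC_ loci well above background on all arrays (1.84 and 1.83, n = 3). Neither passed the group test (limma, adjusted p = 0.429 and 0.856) nor the session test (adjusted p = 0.73 and 0.346). The sessions overlapped for XLOC_003070, whereas for XLOC_015289 all arrays of session 2 lay below those of session 1, although control replicate 3 (-3.84) and control replicate 1 (-3.83) were nearly equal, with a session term of -1.86 (SE 0.66).

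The processed table that the authors deposited held 1372 of the 4392 XLOC_ loci (31.2%) and 21656 of the VIT_ genes (72.7%). Of the features that a whole group had well above background, it held 1340 of 1640 XLOC_ loci (81.7%) and 21469 of 22413 VIT_ genes (95.8%). Of the 49 XLOC_ loci called, 41 were in that table.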

How the data were processed

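The authors hybridized each sample to a custom grapevine array with 1 dye and used Agilent Feature Extraction 10.5.1.1 to read the scans. Deposited processed intensity values are on a linear scale, corrected for background but not scaled between arrays, and the deposited flags for signal well above background and for outlier spots were used as they stand (other values of 0 or 1). The authors' own table holds, for each array, a constant multiple of these intensities. The constant differed between arrays, from 0.74 (OXNAC33 replicate 3) to 1.26 (OXNAC33 replicate 1), so that their table is scaled between arrays. No XLOC_ probe was saturated. Intensities were log2 transformed, scaled to each array's 75th percentile and tested (two-sided) by lmFit and eBayes of limma 3.58.1 in R 4.3.3, and p-values were adjusted by Benjamini-Hochberg over the 23907 features tested. The script was tested on simulated data. The number of arrays limits the precision. The named loci are the largest changes without overlap, the brightest called loci seen in 1 group only, the 4 brightest loci and the 3 with the largest SD over OXNAC33 arrays. Members, lists and rules were chosen with earlier results of these data known. Alternatives were other scalings, background corrections, filters, blocks, the methods' t-test and leaving out each array.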

Additional observations from a re-analysis of the deposited data

How the results depend on the processing

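The counts of called XLOC_ loci (49, of which 9 higher and 40 lower in OXNAC33 leaves) fell to 0 in all 3 under normexp (an alternative chosen after seeing the data, run on median signals because the planned run on mean signals could not be made), without a filter on dim probes, with a session block, with a replicate block and in the methods' t-test after Benjamini-Hochberg adjustment; the cause was not tested. Over all features tested, the count fell from 1200 to 2 in that adjusted t-test and to 0 in the other settings just listed, so that the loss was not particular to XLOC_ loci. The methods' t-test without adjustment called 237 of 1639 XLOC_ loci (41 higher, 196 lower), and its share over all features was not counted. In the limma fit an unadjusted p under 0.05 was found for 19.3% of XLOC_ loci, fewer than the 27.3% of all features tested. Higher calls numbered 14 with median scaling, 16 with spike-in scaling and 4 when only loci well above background on all arrays were fitted and adjusted over (37 calls in all, against 28 of these loci called in the fit over all features tested), and lower calls 18 with spike-in scaling. Leaving out 1 array gave 0 to 77 calls of XLOC_ loci (0 to 18 higher, 0 to 59 lower), against 0 to 2554 over all features tested. The median change of XLOC_ loci was then -0.20 to -0.00118. The median change was 0.053 with spike-in scaling and -0.54 with normexp. The share well above background on all arrays, 29.6%, became 48.6% for signals positive and significant against background on all arrays and 38.8% for at least 4 arrays. Calls for scan session (alternatives chosen after seeing the data) numbered 27 with quantile scaling and 0 to 0 on leaving out 1 array.

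Among the 24 loci named by the rule, the sign turned for the rises of XLOC_017027, XLOC_010722 and XLOC_000856 under normexp (-0.27, -0.29 and -0.26). It also turned for changes that did not pass the test. XLOC_020970 gave -0.075 with quantile scaling, -0.020 with the percentile over detected probes, -0.14 with the session block and -0.27 to 0.30 on leaving out 1 array. XLOC_006267 gave 0.068 with median scaling, 0.14 with spike-in scaling, 0.050 with normexp and -0.16 to 0.15 on leaving out 1 array. XLOC_006763 gave -0.45 with the session block. XLOC_015289 gave -0.24 with normexp, -0.31 with the session block and -0.40 to 1.34 on leaving out 1 array. Replicate numbers did not pair the samples: the deviations of same-numbered arrays correlated at 0.25, -0.23 and 0.18 over features.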
